A study of Mus musculus with 24 samples.

Results

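The genes described here are 10 brakes on cell division in mouse: 4 members of the BTG/TOB family (Btg1, Btg2, Tob1 and Tob2) and 6 inhibitors of cyclin-dependent kinases (Cdkn1a, Cdkn1b, Cdkn1c, Cdkn2a, Cdkn2c and Cdkn2d). They were taken by symbol from a table of exon read counts, where they make up 10 of 24506 genes, and all 10 were found. The series asks how 2 transcription factors of early B cells, EBF1 and PAX5, act on Myc and on expansion. Fetal liver pro-B cells on the C57BL6/J background were expanded on OP9 stromal cells with KIT ligand, Fms-like tyrosine kinase 3 ligand and Interleukin-7. RNA was sequenced in 7 groups of 2 libraries. Wild-type cells, Ebf1-KO cells and Pax5-KO cells each carried the empty retroviral vector pMiG. Ebf1-KO cells also received pMiG with Ebf1 or pMiG with Pax5, and Pax5-KO cells likewise received pMiG with Ebf1 or pMiG with Pax5. All 14 libraries thus came from transduced cells, and the vector rather than the gene's own locus drove the returned factor. EBF1 binding was mapped by chromatin immunoprecipitation in another cell, the Abelson transformed line 230-238 of the pre-B stage, where 2 immunoprecipitations and their input gave 1 peak list. The labels do not say whether the replicates of a group were separate cultures, so the spread that p-values rest on is that between these libraries and may be technical.

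CDK inhibitors bind cyclin-dependent kinases or their cyclin complexes and hold cells before DNA replication. The CIP/KIP proteins p21 (Cdkn1a), p27 (Cdkn1b) and p57 (Cdkn1c) act on several cyclin-kinase complexes, whereas the INK4 proteins, among them p16 (from Cdkn2a), p18 (Cdkn2c) and p19 (Cdkn2d), bind CDK4 and CDK6 and keep D-type cyclins from activating them. BTG/TOB proteins bind the CCR4-NOT complex, which shortens the poly(A) tails of mRNAs, and slow proliferation in many cell types. In the B lineage, EBF1 and PAX5 act one after the other to set the pro-B cell program, and Btg1 and Btg2 are known as frequent targets of mutation or deletion in B-cell malignancy.

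An EBF1 peak of line 230-238 covered part of the promoter window of 3 members, Btg1, Btg2 and Cdkn2c, and these windows are printed for that reason. In each of them the peak ended before the gene's start. The Cdkn2d window is printed beside them because its RNA followed that of Btg1 across the groups. Each window runs from 250 bases before to 50 bases after a gene's start, on the gene's own strand, from RefSeq on GRCm38.p6. Capitals in the first 3 sequences mark the bases inside the peak, and capitals in the last mark a match to CCCNNGGG. The windows are chr10:96616751-96617050 on the plus strand for Btg1, chr1:134079106-134079405 on the minus strand for Btg2, chr4:109666707-109667006 on the minus strand for Cdkn2c and chr9:21291160-21291459 on the minus strand for Cdkn2d.
Btg1: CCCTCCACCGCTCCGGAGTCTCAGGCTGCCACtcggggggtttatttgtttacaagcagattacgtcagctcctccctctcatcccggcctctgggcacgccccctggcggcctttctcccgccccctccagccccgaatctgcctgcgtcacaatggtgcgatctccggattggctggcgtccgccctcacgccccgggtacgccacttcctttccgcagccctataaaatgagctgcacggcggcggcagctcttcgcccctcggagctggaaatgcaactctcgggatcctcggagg
Btg2: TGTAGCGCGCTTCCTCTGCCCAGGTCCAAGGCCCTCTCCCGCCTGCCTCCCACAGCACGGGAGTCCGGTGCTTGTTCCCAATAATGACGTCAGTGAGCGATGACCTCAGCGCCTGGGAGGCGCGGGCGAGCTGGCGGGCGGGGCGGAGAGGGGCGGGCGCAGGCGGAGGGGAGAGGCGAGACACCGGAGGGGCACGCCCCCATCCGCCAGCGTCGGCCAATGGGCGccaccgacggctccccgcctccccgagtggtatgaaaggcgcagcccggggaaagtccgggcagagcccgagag
Cdkn2c: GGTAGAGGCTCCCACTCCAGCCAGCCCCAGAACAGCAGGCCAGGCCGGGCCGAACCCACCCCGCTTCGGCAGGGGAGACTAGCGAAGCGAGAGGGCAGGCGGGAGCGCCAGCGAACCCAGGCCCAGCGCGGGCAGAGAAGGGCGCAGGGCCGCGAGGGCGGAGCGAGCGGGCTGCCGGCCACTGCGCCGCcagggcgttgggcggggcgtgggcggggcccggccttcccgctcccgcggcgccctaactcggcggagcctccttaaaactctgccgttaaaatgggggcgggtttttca
Cdkn2d: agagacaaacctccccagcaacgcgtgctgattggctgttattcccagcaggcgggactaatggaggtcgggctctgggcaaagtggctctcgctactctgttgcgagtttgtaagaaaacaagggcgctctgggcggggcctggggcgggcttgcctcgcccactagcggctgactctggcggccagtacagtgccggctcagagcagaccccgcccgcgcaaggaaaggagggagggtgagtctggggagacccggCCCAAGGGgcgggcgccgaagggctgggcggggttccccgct

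The peak covered 226 bases of the Btg2 window, 190 bases of the Cdkn2c window and 32 bases at the far end of the Btg1 window. Of all 32851 promoter windows in the RefSeq table, 8.14% were overlapped by a peak. This is a share of windows and not of genes, and Cdkn1a, Cdkn2a and Cdkn2c each had more than a single window. It was not limited to the genes tested. The windows of 9 of the 10 members were in the table, and Cdkn1c was not among them. The EBF1 motif was searched as the palindrome CCCNNGGG with T before it and A after it, which reads the same on both strands. This form was in none of these members' windows, against 0.904% of all windows and 3.44% of the 2673 windows overlapped by a peak. The core CCCNNGGG alone, which any match to the longer form contains, was in the windows of 2 members: Cdkn2d, as CCCAAGGG just past the start, and Cdkn2a, as CCCCTGGG with its first base 121 bases before one of its starts. That core was in 13.7% of all windows and 29.9% of those overlapped by a peak. These matches describe letters only.

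Library totals ran from 16118136 to 42076718 exon counts, so levels are given as CPM, the counts of a gene relative to the library's total after scaling by edgeR's TMM factors. Ebf1 RNA was at 966 and 1102 CPM in wild type and at 244 and 282 CPM in Ebf1-KO, where counts over all exons of the gene remained, and which part is deleted is not given in the sources used here. It was also low in Pax5-KO, at 315 and 241 CPM (edgeR log2 fold change -1.89 ± 0.20, adjusted p = 8.7e-06). With the Pax5 vector there it rose to 488 and 589 CPM (edgeR adjusted p = 0.00899). Pax5 RNA was at 412 and 333 CPM in wild type and at 20.1 and 12.3 CPM in Pax5-KO. It was also low in Ebf1-KO, at 2.24 and 2.49 CPM, and rose there to 429 and 399 CPM with the Pax5 vector but only to 37.2 and 33.1 CPM with the Ebf1 vector. Summed pro-B markers (8 genes) were at 4132 to 4548 CPM in wild type, 97.8 to 112.5 CPM in Ebf1-KO and 874 to 993 CPM in Pax5-KO, so the markers behind the ProB label were high in wild type and low in both knockouts. Summed myeloid markers (10 genes) ran the other way, with 26.6 to 28.7 CPM in wild type, 702 to 705 CPM in Ebf1-KO and 451 to 582 CPM in Pax5-KO, and natural killer markers (8 genes) summed to 0.725 to 1.83 CPM, 199.8 to 264 CPM and 383 to 426 CPM. T-lineage markers (9 genes) summed to 20.4 to 37.0 CPM in wild type, 354 to 446 CPM in Ebf1-KO and 516 to 602 CPM in Pax5-KO. Stem and progenitor markers (6 genes) summed to 71.1 to 109 CPM, 1064 to 1065 CPM and 389 to 399 CPM in the same groups. The 10 stromal markers summed to 14.2 and 16.4 CPM in wild type, 65.8 and 68.5 CPM in Ebf1-KO and 12.04 and 13.9 CPM in Pax5-KO. Of these, Lum and Dcn were at 0 in all 14 libraries, and Col3a1 was at 0 in every group but Pax5-KO with Ebf1. Pdgfrb was higher in both knockouts, at a mean of 60.7 CPM in Ebf1-KO and 7.75 CPM in Pax5-KO against 0.0572 CPM in wild type (adjusted p = 6.23e-06 and 0.000162). The part of these other cell types in the results below was not tested, and in bulk RNA fewer cells of a type and less RNA per cell cannot be told apart.

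Most of the brakes were lower in either knockout, where the RNA of both factors was low, and Cdkn1a went the other way. Of the 9 members with enough counts to test, 7 passed an adjusted p of 0.05 in Ebf1-KO against wild type, 6 lower and 1 higher. Of all 14550 genes tested, 14.7% passed there, 6.65% lower and 8.02% higher. The median log2 fold change of the 9 was -1.42, against 0.03 for all genes tested. In Pax5-KO against wild type 6 passed, 5 lower and 1 higher, where 13.6% of genes passed, 5.0% lower and 8.65% higher. The median of the 9 was -1.0 against 0.04. Both comparisons share the wild-type libraries. Cdkn2a had too few counts for the test and is given by its counts.

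Return of a factor had unlike results in the knockouts. Pax5 in Ebf1-KO cells raised 5 of the 9 (Btg1, Btg2, Tob1, Tob2 and Cdkn2d) and lowered none, where 4.08% of genes passed and 3.15% rose. Ebf1 in Ebf1-KO cells changed 1, raising Cdkn1a, where 2.97% of genes passed. In Pax5-KO cells, edgeR called no member with Ebf1, where 3.6% of genes passed, and no member with Pax5, where 4.03% passed. At an unadjusted edgeR p under 0.05 those counts were 1 and 4 of the 9, against 3005 and 2140 of all 14550 genes tested. DESeq2 called 1 member in each, Tob1 with Ebf1 and Cdkn1c with Pax5, where it called 1590 and 1153 of all genes. With the replicate number as a block, 916 genes in place of 594 passed with Pax5 in Ebf1-KO cells and 821 in place of 524 with Ebf1 in Pax5-KO cells, and no member's call changed. Against wild type, 6 of the 9 still differed in Ebf1-KO with Ebf1 and 4 in Pax5-KO with Pax5, where 11.2% and 7.13% of genes did. The 2 Ebf1-KO comparisons share their empty-vector libraries with each other and with the comparison against wild type, and the Pax5-KO comparisons do likewise.

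**Figure D1:**
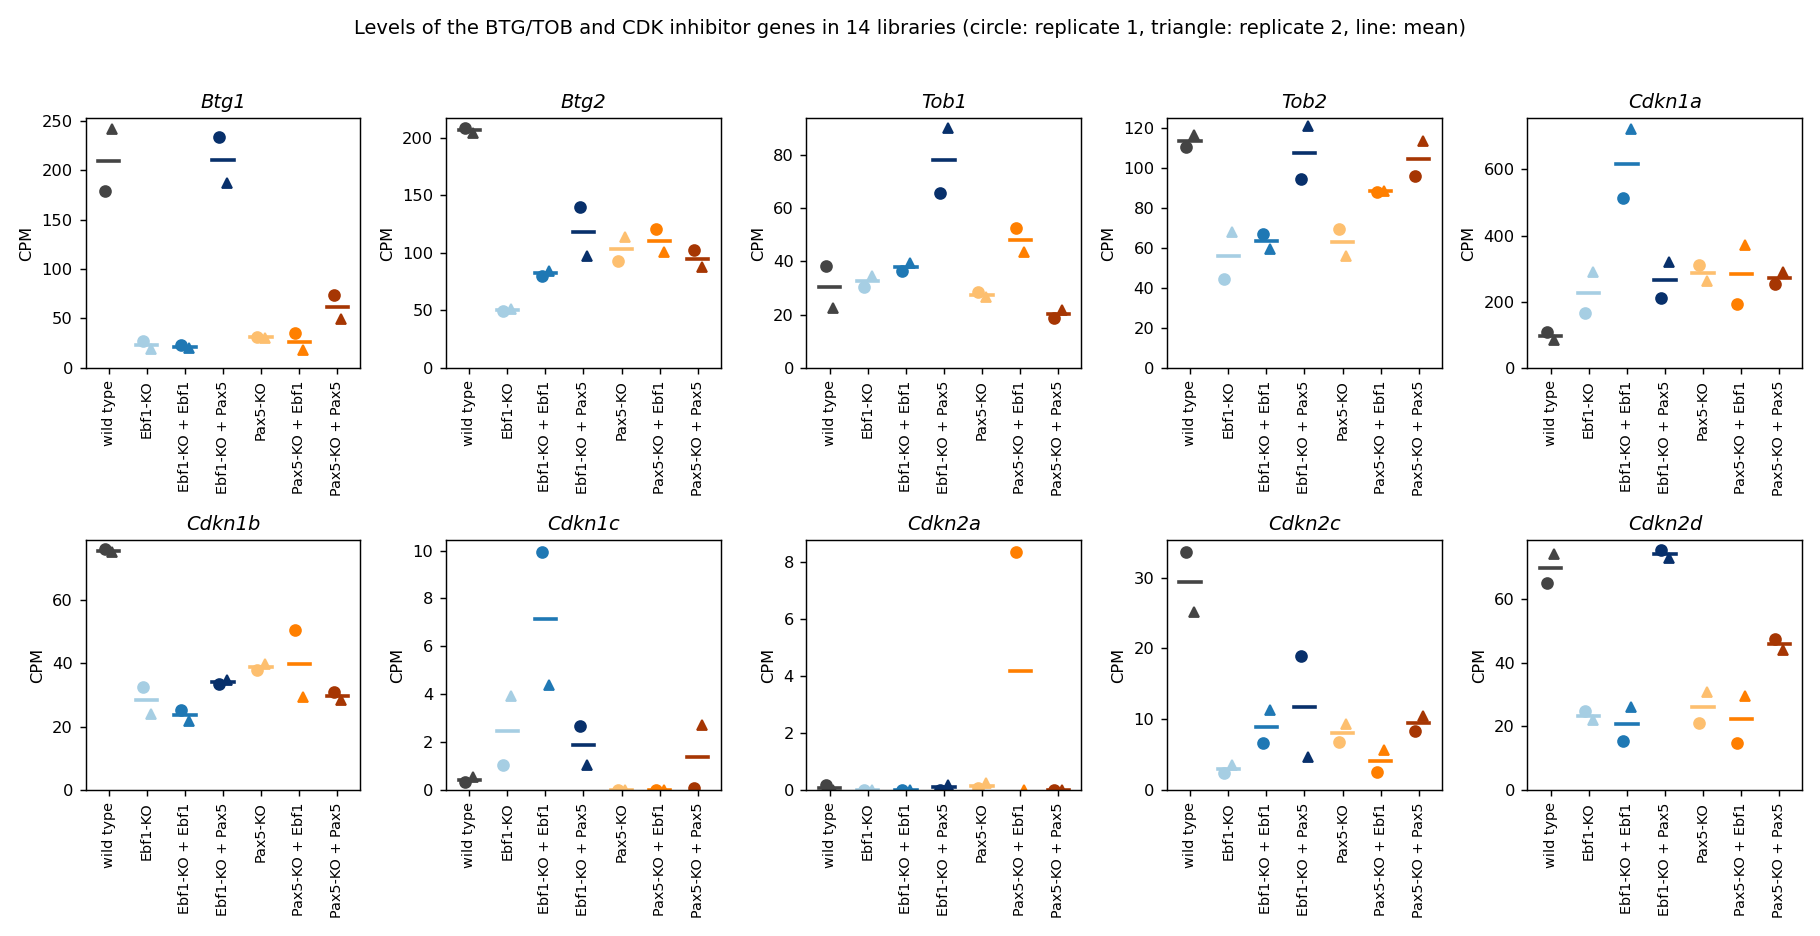
Level of each of the 10 genes in the 14 libraries, in CPM on a linear axis that starts at 0 and has its own range in each panel; circles are replicate 1, triangles replicate 2, and lines the mean of 2. Btg1 and Cdkn2d sit high in the wild-type libraries and those of Ebf1-KO with Pax5, while Cdkn1a is lowest in wild type and highest, at 513 and 722 CPM, in Ebf1-KO with Ebf1.

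Btg1, an antiproliferative cofactor of CCR4-NOT, was at 178 and 241 CPM in wild type. It was at 27.1 and 19.3 CPM in Ebf1-KO and at 31.4 and 30.5 CPM in Pax5-KO. Neither knockout overlapped wild type, with log2 fold changes of -3.18 ± 0.33 (SE, adjusted p = 8.78e-06, 9.05-fold lower) and -2.76 ± 0.33 (adjusted p = 3.54e-05, 6.77-fold lower). In Ebf1-KO cells the Pax5 vector brought Btg1 to 233 and 187 CPM, a rise of 3.18 ± 0.33 on the log2 scale (adjusted p = 7.74e-05), and both libraries lay between those of wild type. The Ebf1 vector left it at 22.8 and 19.9 CPM, a log2 difference of -0.12 ± 0.31 (adjusted p = 0.9997). In Pax5-KO cells the Pax5 vector gave 73.2 and 49.6 CPM, above both empty-vector libraries, but the log2 difference of 0.99 ± 0.31 did not pass (adjusted p = 0.110). With Ebf1 in Pax5-KO cells it was at 34.9 and 18.0 CPM, on either side of the empty-vector libraries. The calls of Btg1 against wild type in both knockouts and with Pax5 in Ebf1-KO held without any single library.

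The effect of the Pax5 vector on Btg1 was smaller in Pax5-KO than in Ebf1-KO cells, with a difference of -2.19 ± 0.44 on the log2 scale (adjusted p = 0.0143). Of all genes tested, 3.16% differed in this way and 2.43% in this direction, and of the 9 members 3 did, Btg1, Btg2 and Tob1, all in this direction. That difference lost its call without replicate 2 of Ebf1-KO (adjusted p = 0.0614) and without Pax5-KO with Pax5 replicate 2 (adjusted p = 0.0875). Pax5 RNA itself reached 746 and 439.6 CPM with the vector in Pax5-KO cells and 429 and 399 CPM in Ebf1-KO cells. Any part of its level in the difference was not tested. Btg1 in Pax5-KO with Pax5 remained 3.42-fold below wild type (log2 fold change -1.77 ± 0.32, adjusted p = 0.00278), a call lost without Pax5-KO with Pax5 replicate 2 (adjusted p = 0.0535). In Ebf1-KO with Ebf1 it was 9.85-fold below wild type (adjusted p = 1.03e-05).

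Btg2, a p53-responsive family member, was at 209 and 204 CPM in wild type, the highest group. It was at 49.6 and 50.9 CPM in Ebf1-KO, the lowest group, a log2 fold change of -2.04 ± 0.23 (adjusted p = 1.39e-05). In Pax5-KO it was at 92.5 and 113 CPM, 2.00-fold below wild type (adjusted p = 0.00622), a call lost without Pax5-KO replicate 1 (adjusted p = 0.0656). The Pax5 vector in Ebf1-KO cells brought it to 139.5 and 97.1 CPM, above the empty vector and below wild type, a rise of 1.23 ± 0.22 on the log2 scale (adjusted p = 0.00441). This call was lost without replicate 1 of Ebf1-KO (adjusted p = 0.0848) or without Ebf1-KO with Pax5 replicate 1 (adjusted p = 0.0558). The Ebf1 vector gave 80.2 and 84.3 CPM, also above both empty-vector libraries, with a log2 difference of 0.71 ± 0.22 that did not pass (adjusted p = 0.131).

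In Pax5-KO cells Btg2 was at 120.3 and 100.2 CPM with Ebf1 and at 102 and 87.2 CPM with Pax5, each overlapping the empty vector. The effect of Pax5 on it differed between the knockouts by -1.36 ± 0.31 on the log2 scale (adjusted p = 0.0285). That call was lost in 6 of 8 fits that each left out 1 library: replicate 1 of Ebf1-KO (adjusted p = 0.123) and 2 (0.0734), Ebf1-KO with Pax5 replicate 1 (0.0917), Pax5-KO replicate 2 (0.123), and Pax5-KO with Pax5 replicate 1 (0.0665) and 2 (0.150). Against wild type Btg2 was still lower in Ebf1-KO with Ebf1 (log2 fold change -1.33 ± 0.22, adjusted p = 0.000889). It was also lower in Pax5-KO with Pax5 (-1.12 ± 0.22, adjusted p = 0.00529), though not without Pax5-KO with Pax5 replicate 2 (adjusted p = 0.0850).

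Tob1 and Tob2 are the larger relatives, which also bind the poly(A)-binding protein. Tob1 was at 38.4 and 22.7 CPM in wild type, and the libraries of Ebf1-KO (30.5 and 34.6 CPM) and Pax5-KO (28.4 and 26.7 CPM) lay between those values. Its log2 fold changes against wild type were 0.09 ± 0.30 (adjusted p = 0.896) and -0.15 ± 0.30 (adjusted p = 0.802). Its highest level was with Pax5 in Ebf1-KO cells, 65.8 and 90.2 CPM, a rise of 1.26 ± 0.30 on the log2 scale over the empty vector (adjusted p = 0.0279). This rise put Tob1 above wild type rather than back to it. The call was lost without replicate 1 of Ebf1-KO (adjusted p = 0.307), replicate 2 of Ebf1-KO (0.136) or Ebf1-KO with Pax5 replicate 2 (0.235).

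With Pax5 in Pax5-KO cells Tob1 was at its lowest, 18.8 and 21.6 CPM. The Pax5 effect on Tob1 differed between the knockouts by -1.71 ± 0.42 on the log2 scale (adjusted p = 0.0403). Of the 8 fits without 1 library, 7 lost this call: without replicate 1 of Ebf1-KO (adjusted p = 0.194) or 2 (0.0949), Ebf1-KO with Pax5 replicate 2 (0.1475), Pax5-KO replicate 1 (0.1001) or 2 (0.115), and Pax5-KO with Pax5 replicate 1 (0.153) or 2 (0.139). With Ebf1 Tob1 was at 52.6 and 43.7 CPM in Pax5-KO cells, above both empty-vector libraries, a log2 difference of 0.80 ± 0.30 (adjusted p = 0.148), which DESeq2 called.

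Tob2 was at 110.2 and 116 CPM in wild type, 44.2 and 68.0 CPM in Ebf1-KO and 69.3 and 56.1 CPM in Pax5-KO. It was 2.02-fold lower in Ebf1-KO (adjusted p = 0.00966) and 1.81-fold lower in Pax5-KO (adjusted p = 0.0284). With Pax5 it was at 94.2 and 121 CPM in Ebf1-KO cells, overlapping wild type (log2 rise 0.94 ± 0.24, adjusted p = 0.0430), and at 95.9 and 113 CPM in Pax5-KO cells (0.74 ± 0.24, adjusted p = 0.123). The effect of Pax5 on Tob2 differed between the knockouts by -0.20 ± 0.34 on the log2 scale (adjusted p = 0.862). Each of these 3 calls was lost without some single library. The fall in Ebf1-KO was lost without replicate 1 of Ebf1-KO (adjusted p = 0.176) or wild-type replicate 2 (0.0742). The fall in Pax5-KO was lost without Pax5-KO replicate 1 (0.0544) or 2 (0.267) or wild-type replicate 1 (0.0860) or 2 (0.177). The rise with Pax5 in Ebf1-KO was lost without replicate 1 of Ebf1-KO (0.515) or Ebf1-KO with Pax5 replicate 1 (0.0565) or 2 (0.313).

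**Figure D2:**
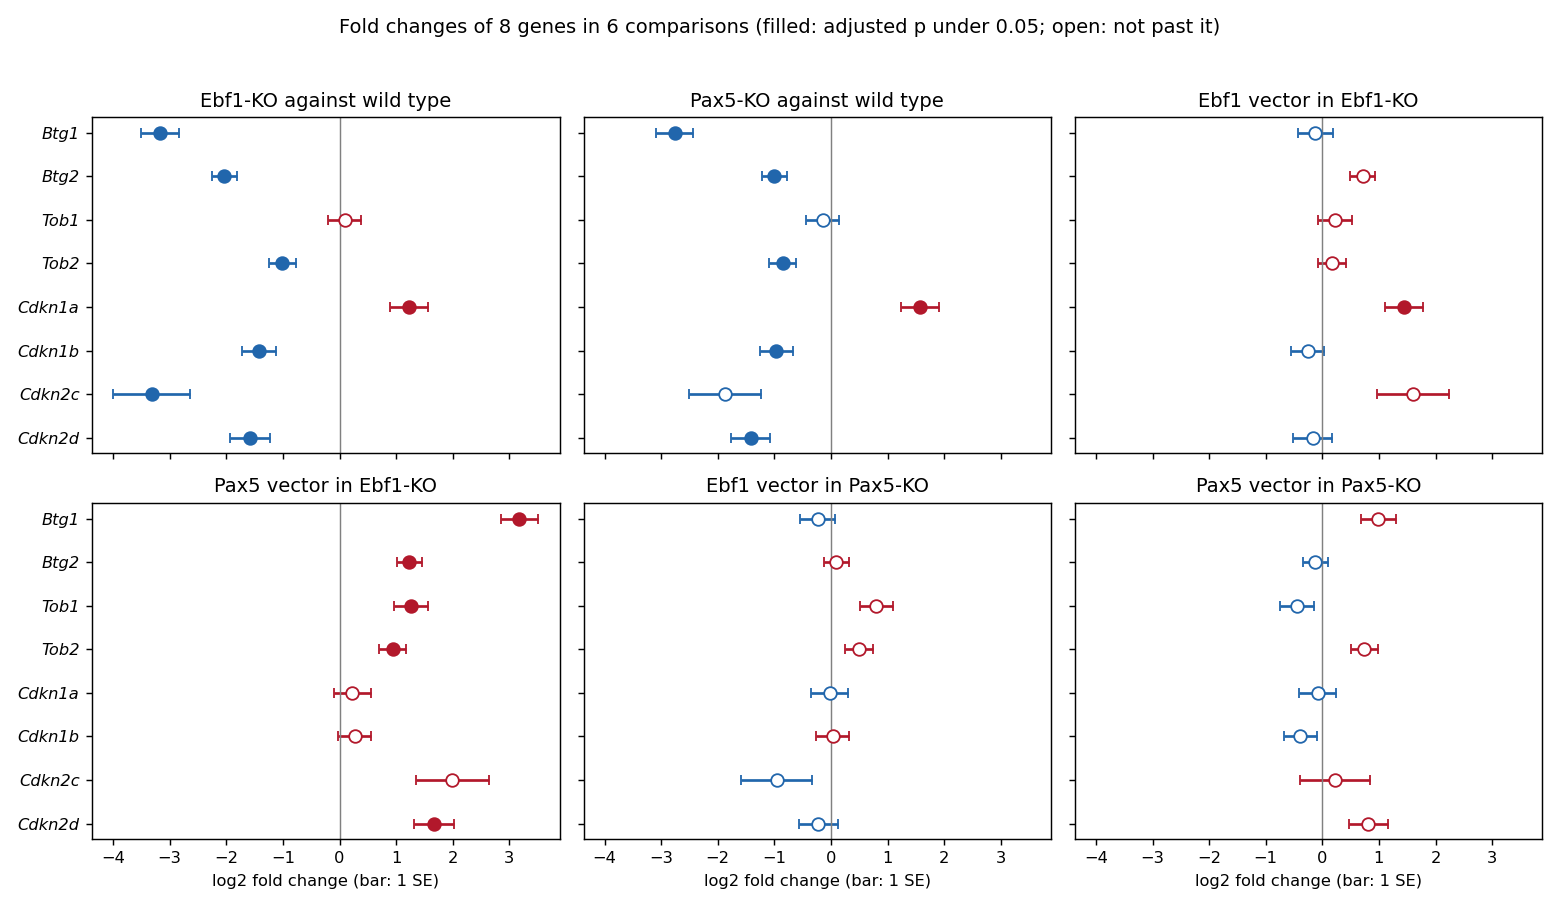
Log2 fold changes of the 8 genes with enough counts in all groups, in 6 comparisons. Error bars are 1 SE derived from the F statistic of edgeR. Filled points passed an adjusted p of 0.05, blue is lower and red higher. The top left and top middle panels hold the falls in the knockouts, and the bottom left panel the rises with Pax5 in Ebf1-KO cells, led by Btg1 at 3.18.

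Cdkn1a, which encodes the p53 target p21, was the only member called higher in either knockout. It was at 109 and 84.7 CPM in wild type, the lowest group, at 164 and 291 CPM in Ebf1-KO and at 310.4 and 264 CPM in Pax5-KO. It was 2.35-fold higher in Ebf1-KO (log2 fold change 1.23 ± 0.33, adjusted p = 0.0204) and 2.96-fold higher in Pax5-KO (1.57 ± 0.34, adjusted p = 0.00550). The Ebf1-KO call was lost without replicate 2 of Ebf1-KO (adjusted p = 0.286) or wild-type replicate 1 (0.0506) or 2 (0.186), and the Pax5-KO call without wild-type replicate 2 (0.0759).

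The Ebf1 vector did not lower Cdkn1a in Ebf1-KO cells but raised it further, to 513 and 722 CPM, above every other library. The rise over the empty vector was 1.44 ± 0.33 on the log2 scale (adjusted p = 0.0279), and it was lost without replicate 1 of Ebf1-KO (adjusted p = 0.365) or replicate 2 of Ebf1-KO with Ebf1 (0.289). Against wild type Cdkn1a was 6.37-fold higher in this group (adjusted p = 0.000107). In Pax5-KO cells with Ebf1 it was at 193 and 373 CPM, on either side of the empty vector. The effect of Ebf1 differed between the knockouts by -1.46 ± 0.46 (adjusted p = 0.324) and did not pass. It was called when no filter on low counts was used, and also without Pax5-KO with Ebf1 replicate 2, where it was -2.02. With Pax5, Cdkn1a was at 212 and 319 CPM in Ebf1-KO cells and at 253 and 291 CPM in Pax5-KO cells, and neither differed from its empty vector in the test (adjusted p = 0.825 and 0.968). In Pax5-KO with Pax5 it stayed 2.80-fold above wild type (adjusted p = 0.0136), though not without Pax5-KO with Pax5 replicate 2 (0.09997) or wild-type replicate 2 (0.179).

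Across the difference between the knockouts in the effect of Ebf1, no member passed in edgeR, where 0.612% of genes passed. An unadjusted edgeR p under 0.05 was found for 2 of the 9 members and for 1219 of all 14550 genes tested. DESeq2 called no member and 247 of all genes.

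Cdkn1b, which encodes p27, was highest in wild type at 76.1 and 75.1 CPM, and every library of the other groups was at 50.4 CPM or below. It was at 32.5 and 24.0 CPM in Ebf1-KO (log2 fold change -1.42 ± 0.30, adjusted p = 0.00394) and at 38.0 and 39.6 CPM in Pax5-KO (-0.96 ± 0.29, adjusted p = 0.0420). No comparison of a vector with its empty vector called it. With Ebf1 it was at 25.2 and 21.9 CPM in Ebf1-KO cells and at 50.4 and 29.3 CPM in Pax5-KO cells, and with Pax5 at 33.6 and 34.6 CPM and at 30.8 and 28.3 CPM. It thus stayed below wild type in Ebf1-KO with Ebf1 (-1.68 ± 0.30, adjusted p = 0.00156) and in Pax5-KO with Pax5 (-1.36 ± 0.30, adjusted p = 0.0116). The Ebf1-KO call was lost without replicate 2 of Ebf1-KO (adjusted p = 0.0715). The Pax5-KO call was lost without any of its 4 libraries (adjusted p from 0.134 to 0.194) and with no filter on low counts (0.0574). The call in Pax5-KO with Pax5 was also lost without any of its 4 libraries (0.0514 to 0.135).

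Cdkn1c, which encodes p57 and is imprinted, was rare and is given by its counts. Wild type had 6 and 9 counts, Ebf1-KO 23 and 113, Ebf1-KO with Ebf1 206 and 154, and Ebf1-KO with Pax5 62 and 32. Pax5-KO had 0 and 0, Pax5-KO with Ebf1 0 and 0, and Pax5-KO with Pax5 2 and 95. All 6 libraries on the Ebf1-KO background thus had more counts than either wild-type library, while 4 of 6 on the Pax5-KO background had none. Against the limit of 3 counts over a group that a count of 0 allows, the wild-type value was 7.52-fold the Pax5-KO limit. This ratio leaves out the counting error of the wild-type counts and the spread between libraries, so it is not a lower bound. In edgeR the log2 difference between Ebf1-KO and wild type was 2.58 ± 1.42 (adjusted p = 0.280), and the comparisons of Pax5-KO with wild type and of Pax5 in Pax5-KO cells missed the threshold (adjusted p = 0.0743 and 0.0585). DESeq2 called both, and the second rests on the 95 counts of Pax5-KO with Pax5 replicate 2. In Ebf1-KO with Ebf1, the group with the most Cdkn1c, the stromal markers summed to 19.8 and 24.1 CPM, most of it Pdgfrb (mean 18.9 CPM), and 7 of the 10 were at 0 in both libraries. Any part of stromal cells in the Cdkn1c counts was not tested.

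Cdkn2c, which encodes p18, was at 33.7 and 25.2 CPM in wild type and at 2.33 and 3.56 CPM in Ebf1-KO. This was a 9.96-fold fall (log2 fold change -3.32 ± 0.68, adjusted p = 0.00345). It was the largest point value of any member in that comparison, but that of Btg1 (-3.18 ± 0.33) lay within its SE. In Pax5-KO it was at 6.78 and 9.36 CPM, apart from wild type but not past the threshold (-1.87 ± 0.64, adjusted p = 0.0694), and DESeq2 called it. The Pax5 vector in Ebf1-KO cells gave 19.0 and 4.59 CPM, both above the empty vector but far from each other (log2 difference 1.99 ± 0.65, adjusted p = 0.114). DESeq2 called this difference, and it was also called with no filter on low counts and without Ebf1-KO with Pax5 replicate 2, where it was 2.64. Without Ebf1-KO with Pax5 replicate 1 it was 0.66. The Ebf1 vector there gave 6.55 and 11.3 CPM (1.60 ± 0.64, adjusted p = 0.323). In Pax5-KO cells it was at 2.52 and 5.70 CPM with Ebf1 and at 8.38 and 10.4 CPM with Pax5, so that no library of a knockout, with or without a vector, reached the wild-type libraries.

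Cdkn2d, the INK4 gene for p19, had the profile of Btg1. It was at 65.1 and 74.2 CPM in wild type, 24.8 and 21.9 CPM in Ebf1-KO and 21.1 and 30.8 CPM in Pax5-KO. It was 2.99-fold lower in Ebf1-KO (adjusted p = 0.00637) and 2.68-fold lower in Pax5-KO (adjusted p = 0.0138). Pax5 in Ebf1-KO cells gave 75.4 and 72.8 CPM, overlapping wild type, a rise of 1.67 ± 0.35 on the log2 scale (adjusted p = 0.0149). Ebf1 in those cells gave 15.4 and 26.0 CPM, on either side of the empty vector. In Pax5-KO cells Pax5 gave 47.5 and 43.9 CPM, between the empty vector and wild type (0.81 ± 0.35, adjusted p = 0.276), and Ebf1 gave 14.8 and 29.6 CPM.

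The fall of Cdkn2d in Ebf1-KO lost its call without replicate 2 of Ebf1-KO (adjusted p = 0.0619), and the fall in Pax5-KO without Pax5-KO replicate 1 (0.1155) or wild-type replicate 2 (0.0897). The rise with Pax5 lost its call without replicate 1 of Ebf1-KO (0.132) or 2 (0.127) or Ebf1-KO with Pax5 replicate 1 (0.05195) or 2 (0.0629), with log2 values from 1.60 to 1.73. In Ebf1-KO with Ebf1 it stayed 3.36-fold below wild type (adjusted p = 0.00430), though not without Ebf1-KO with Ebf1 replicate 1 (0.0787).

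Cdkn2a encodes p16 and, through another first exon, the p53 activator ARF; both share downstream exons, so their reads cannot be told apart in 1 count per gene. Wild type had 3 and 0 counts, Ebf1-KO and Ebf1-KO with Ebf1 had none, and Ebf1-KO with Pax5 had 0 and 5. Pax5-KO had 1 and 8, Pax5-KO with Pax5 had none, and Pax5-KO with Ebf1 had 139 and 0. The 139 counts, or 8.35 CPM, came from 1 library whose partner had none among 42076718 counts. A count of 0 over both libraries of a group allows up to 0.0590 CPM in Ebf1-KO and 0.0528 CPM in Pax5-KO with Pax5, counting error only. No fold or test is given for it.

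The make-up of the brakes also differed between the groups. On the scale of CPM per kb of transcript, on which genes can be compared, the BTG/TOB genes held 48.5% and 51.1% of the summed level of the 10 genes in the wild-type libraries. In Ebf1-KO they held 27.6% and 22.3%, in Pax5-KO 25.0% and 27.2%, and in Ebf1-KO with Ebf1 17.4% and 13.3%. Their own summed level did not go down with Ebf1: it was 45.97 and 52.6 CPM per kb in Ebf1-KO and 63.2 and 63.6 CPM per kb in Ebf1-KO with Ebf1, against 147.9 and 153.5 CPM per kb in wild type. The CDK inhibitors summed to 120.9 and 183.5 CPM per kb in Ebf1-KO and to 299.7 and 416 CPM per kb with Ebf1. In wild type they summed to 157.3 and 146.9 CPM per kb, between the 2 Ebf1-KO values. With Pax5 in Ebf1-KO cells the BTG/TOB share was 42.5% and 36.4%, between Ebf1-KO and wild type. Cdkn1a alone held 18.8% and 14.8% in wild type. Its share was 51.6% and 64.6% for the Ebf1-KO libraries, 61.5% and 54.7% for those of Pax5-KO, and 74.0% and 78.9% for those of Ebf1-KO with Ebf1. Among the genes, wild type ranked Btg2 (67.0 CPM per kb), Cdkn2d (55.0), Cdkn1a (50.8) and Btg1 (41.9) highest, and Ebf1-KO ranked Cdkn1a (119), Cdkn2d (18.4) and Btg2 (16.3) highest.

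**Figure D3:**
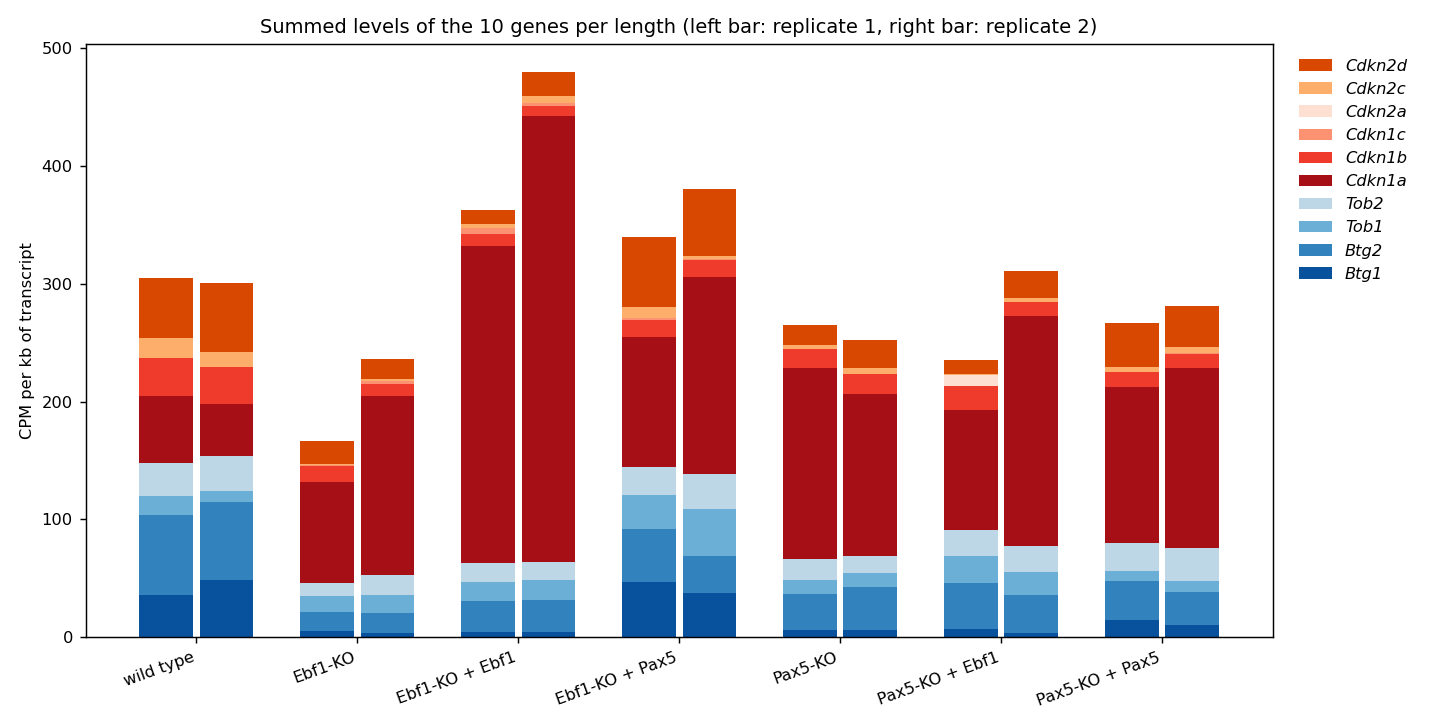
Summed level of the 10 genes in each library, in CPM per kb of transcript, with 1 bar per library (left replicate 1, right replicate 2), BTG/TOB genes in blue below and CDK inhibitors in red and orange above. The dark red Cdkn1a band is narrow in wild type and widest in Ebf1-KO with Ebf1, and the blue bands are tall in the wild-type libraries and those of Ebf1-KO with Pax5.

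The genes whose group means followed each member most closely were found among 8875 genes with a mean log2 CPM of at least 3, by Pearson's r of mean log2 CPM over the 7 groups. For Btg1 the closest was another member, Cdkn2d (r = 0.985), followed by Aftph (0.977) and Lpgat1 (0.973). For Cdkn2d they were Aftph (0.986), Btg1 (0.985) and Ipmk (0.980). Btg2 was nearest to Cerk (0.979), Tinf2 and Zfp36, Tob1 to Pet100 (0.959), Atl3 and Deaf1, and Tob2 to Cap1 (0.994), Rnf19a and Man1a2. Cdkn1a was nearest to Copz1 (0.978), Eif2b4 and Ppp1r8, Cdkn1b to Pde1b (0.974), Slc27a4 and Pdxp, Cdkn1c to Mpp7 (0.965), Borcs7 and Nf1, and Cdkn2c to Creb1 (0.973), Ing3 and Pxk. Within the members, Cdkn1a ran against Cdkn1b (r = -0.87), and Tob1 followed no other member beyond 0.253. With 7 points from the same 14 libraries and 8875 genes searched, values near 1 are found for every member, and these are descriptions.

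Partners and targets of the brakes are given from lists set by function. Of 15 genes of the CCR4-NOT and PAN deadenylases, through which BTG/TOB proteins act, 1 passed in Ebf1-KO against wild type, Pan2 (1.80-fold lower, adjusted p = 0.0496), and none in Pax5-KO. Of 12 other brakes tested, 3 were lower (Rb1, Rbl1 and Ccng2) and none higher in Ebf1-KO. Among them were Rb1, the retinoblastoma protein that CDK4 and CDK6 inactivate (log2 fold change -1.30 ± 0.20, adjusted p = 0.000282), and Ccng2, a FOXO target (-1.32 ± 0.26, adjusted p = 0.00241). Rb1 and Ccng2 were also lower in Pax5-KO (-1.37 ± 0.20 and -1.99 ± 0.26), where Mxd1, an antagonist of MYC, was higher (1.22 ± 0.37, adjusted p = 0.0421). No gene of this list passed with either vector in either knockout.

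Of the 14 cyclins, kinases and E2F genes on which CDK inhibitors bear, 3 were higher (Ccnd1, Cdk4 and Cdk6) and 3 lower (Ccnd2, Ccnd3 and E2f2) in Ebf1-KO. In Pax5-KO 3 were higher (Ccnd1, Ccnd2 and Cdk6) and 2 lower (Ccnd3 and E2f2). Ccnd1, a D-type cyclin, was higher in both (4.17-fold and 3.04-fold), while Ccnd3, the D-type cyclin known for its role in pre-B cells, and E2f2 were lower in both. E2f2, at 599 CPM in wild type and 79.7 CPM in Ebf1-KO, rose with each vector in each knockout, by 1.40 to 2.10 on the log2 scale. It was the 1 gene of this list that passed with Pax5 in Ebf1-KO cells, where its level was 281 CPM. Of 14 proliferation genes, Mki67, Rrm2 and Aurkb were lower in both knockouts and none was higher. Mki67 went from 4432 and 4022 CPM in wild type to 1235 and 1424 CPM in Ebf1-KO, and none of the 14 passed with Pax5 there, the comparison in which 5 brakes rose.

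Of 16 genes of the ARF and p53 arm, to which Cdkn1a belongs as a target, none was higher in either knockout. Trp53inp1 was lower in both (log2 fold changes -1.81 ± 0.19 and -0.82 ± 0.19) and Zmat3 in Ebf1-KO (-1.74 ± 0.29), while Cdkn1a was higher in both. The list had 14 of 16 genes not called in Ebf1-KO and 15 of 16 not called in Pax5-KO. Any part of p53 in the Cdkn1a levels was not tested. With Ebf1 in Ebf1-KO cells, where Cdkn1a was highest, none of the 16 passed. With Pax5 in Ebf1-KO cells Trp53inp1 (0.83 ± 0.19) and Pmaip1 (1.20 ± 0.30) rose. Of 9 FOXO and KLF2 quiescence genes, Foxo1 and Klf2 were lower in both knockouts, Foxo1 by 27.7-fold in Ebf1-KO (adjusted p = 5.43e-10). Pax5 in Ebf1-KO cells raised Foxo1, Klf2 and Txnip and lowered Il7r, the Interleukin-7 receptor. Foxo1 also rose with Ebf1 there, by 3.48 ± 0.19 on the log2 scale (adjusted p = 2.12e-08), to 247 CPM, against 133 CPM with Pax5. Btg1 and Cdkn2d did not pass with Ebf1, and any part of Foxo1 in their levels was not tested. Of 10 Polycomb and other regulators of Cdkn2a, Hmga2 was higher and Ezh2 lower in both knockouts. Ezh2 rose with Ebf1 in both, by 1.00 ± 0.19 on the log2 scale in Ebf1-KO and 1.32 ± 0.19 in Pax5-KO cells. Hmga2 rose with Ebf1 in Pax5-KO cells (1.47 ± 0.38, adjusted p = 0.0453) and was lower with it in Ebf1-KO cells (-1.69 ± 0.38, adjusted p = 0.0238), and the effect differed between the knockouts by 3.16 ± 0.54 (adjusted p = 0.00975).

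Myc RNA, the subject of the series, was at 143 and 187 CPM in Ebf1-KO and fell to 66.8 and 84.3 CPM with Pax5 (log2 fold change -1.13 ± 0.25, adjusted p = 0.0209), the comparison in which Btg1, Btg2, Tob1, Tob2 and Cdkn2d rose. With Pax5 in Pax5-KO cells Myc was at 499 and 670.1 CPM against 277 and 344 CPM with the empty vector (0.91 ± 0.25, adjusted p = 0.0600). The effect of Pax5 on Myc differed between the knockouts by 2.04 ± 0.36 (adjusted p = 0.00624), in the direction opposite to that for Btg1, Btg2 and Tob1.

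The EBF1 peak list of line 230-238 held 17230 peaks of 320 bases, with a median of 25.5 normalized tags. A peak centre lay inside the gene or within 50 kb of its start for 8 of the 10 members, against 58.0% of all genes in the count table and 76.6% of the genes tested. Within 10 kb it was 6 of 10, against 31.2% and 45.9%, and within 100 kb 9 of 10, against 68.4% and 85.6%. Among the 8852 higher-scoring peaks it was 7 of 10, against 40.4% and 54.1%. Read against the genes tested, 8 of 10 was near the background. Cdkn2a and Cdkn1c had no peak within 50 kb.

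The strongest peaks lay away from the starts. Btg2 had the highest, 249.1 tags at chr1:134093205-134093525, upstream of the gene by 14.2 kb, ranked 59 of 17230. The largest near Btg1, at chr10:96622791-96623111, lay 5.95 kb past its start, at the end of the gene, with 162.0 tags and rank 301. Around Cdkn1a there were 9 peaks, led by 192.5 tags (rank 169) at chr17:29062592-29062912 and 126.5 tags at chr17:29063744-29064064, both about 30 kb upstream and nearer to the start of Trp53cor1, and only 1 of the 9 had Cdkn1a as its nearest start. Near Tob2 a peak of 133.7 tags (rank 572) lay 12.4 kb past the start, at chr15:81845718-81846038. The strongest near Cdkn2d, 112.6 tags at chr9:21265038-21265358, lay 26.0 kb past the start and close to the start of Atg4d.

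Peaks close to the starts were weaker. Those of Btg1 and Btg2, seen in the printed windows, had 23.3 and 15.0 tags, and that of Cdkn2c had 16.1, against the list's median of 25.5. Tob1 had 29.4 tags at a centre 254 bases inside the gene (chr11:94211548-94211868). Cdkn1b had 4 peaks of 28.3 to 52.2 tags, of which none had Cdkn1b as its nearest start. The peaks come from a pre-B line and the RNA from pro-B cultures, so a peak shows binding in the line only. By the strongest peak within 50 kb, the first members were Btg2, Cdkn1a and Btg1, though that of Cdkn1a was nearer to the start of Trp53cor1. The only peak with Cdkn1a as its nearest start had 93.2 tags, fewer than the 133.7 of the peak nearest to Tob2. When Ebf1 was returned to Ebf1-KO cells, Cdkn1a passed, and Btg1 and Btg2 did not. Btg2 was then at 80.2 and 84.3 CPM, above the 49.6 and 50.9 CPM of the empty vector. Whether the peaks bear on these levels was not tested.

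**Figure D4:**
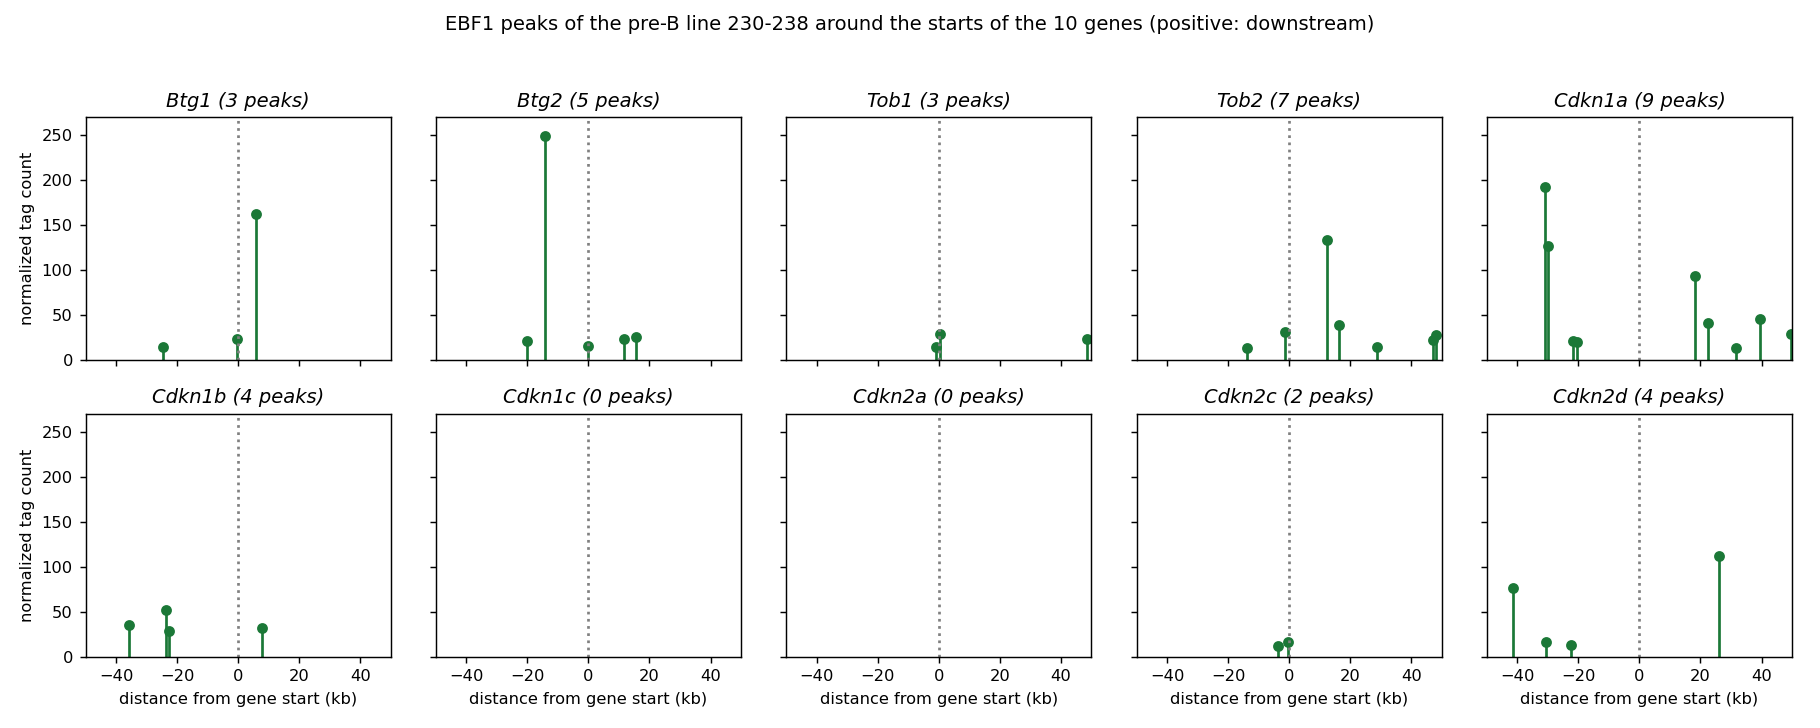
EBF1 peaks within 50 kb of the start of each gene: distance of the peak centre from the start in kb (negative upstream, dotted line at the start) against the authors' normalized tag count. Tall peaks stand away from the starts, at 249.1 tags for Btg2, 192.5 for Cdkn1a and 162.0 for Btg1, and Cdkn1c and Cdkn2a have none.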

How the data were processed

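RNA was measured in 14 libraries of 7 groups, with 16118136 to 42076718 exon counts each, and EBF1 binding in 1 peak list. The authors deposited raw whole-number exon read counts per gene, made with HOMER analyzeRepeats on mm10 per the file headers. Reads were handled with STAR 2.6.0b-1 and Bowtie2 2.3.4.2 among other tools, per the submitters' processing notes, which also name HOMER 4.8; parameters and the strand setting are not given in the sources used here, and no other gene of the table overlaps a member. The deposited peak list gives, per the file headers, the authors' normalized tag signal, a findPeaks score and a fold ratio over control for each peak; per the labels the peaks passed IDR. These were used only to rank and describe peaks.

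Counts were scaled by TMM and tested with edgeR 4.0.16 (quasi-likelihood test, R 4.3.3) in 1 fit over the 7 groups, after filterByExpr left 14550 genes; p-values were adjusted by Benjamini-Hochberg over all of them, at 0.05. CPM values are mean ± SD or single libraries (n = 2). The SE of a log2 fold change was derived as its absolute value over the square root of edgeR's F statistic. Alternatives were DESeq2 1.42.0, RLE scaling, no filter, a replicate block and leaving out each library. Of the Pax5-KO empty-vector columns 1 is numbered 2, and the unnumbered one was called replicate 1. Column names carry 1 tag for every replicate 1 and another for every replicate 2. Counting intervals cover counting error only.

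The members, lists and tests were chosen with earlier results of these data known. All members were named; of each list, the 3 called genes with the largest log2 fold change per comparison could be named, as could the 3 genes most like each member. Rbl1, Cdk4, Cdk6, Ccnd2 and Il7r, where named without values, were named after their values were seen. Chromatin contact profiles are not used here.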

Additional observations from a re-analysis of the deposited data

Results flagged for a closer look

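In 3 members the effect of the Pax5 vector differed between the knockouts in a test of that difference, given here as the log2 effect in Pax5-KO cells minus that in Ebf1-KO cells. For Btg1 it was -2.19, with a rise of 3.18 in Ebf1-KO and of 0.99 in Pax5-KO cells. For Btg2 it was -1.36, with 1.23 and -0.12. For Tob1 it was -1.71, with 1.26 and -0.45. The libraries whose removal ended these calls are named in the results, and the starting levels in the 2 empty-vector groups differed most for Btg2, at 49.6 and 50.9 CPM in Ebf1-KO against 92.5 and 113 CPM in Pax5-KO.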

How the results depend on the processing

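Of 792 results of members under alternatives, 672 kept their direction and their side of the threshold, 21 passed it only under the alternative and 62 lost it. The other 37, from 23 results, changed direction; none of these was called under either setting (lowest adjusted p 0.534 as reported and 0.508 under the alternative), and 35 left out 1 library. Without 1 library at a time, log2 values of those 23 ran as follows. Against wild type, Tob1 ran from -0.24 to 0.53 in Ebf1-KO, -0.46 to 0.29 in Pax5-KO and -0.016 to 0.75 in Ebf1-KO with Ebf1, and in Pax5-KO with Pax5 Tob2 ran from -0.26 to 0.0091 and Cdkn1c from -2.11 to 2.70. With Ebf1 in Ebf1-KO, Btg1 ran from -0.33 to 0.12, Tob2 from -0.13 to 0.54 and Cdkn2d from -0.60 to 0.16. With Pax5 there, Cdkn1a ran from -0.15 to 0.72 and Cdkn1c from -1.24 to 0.82. With Ebf1 in Pax5-KO, Btg1 ran from -0.78 to 0.16, Btg2 from -0.044 to 0.26, Cdkn1a from -0.58 to 0.38, Cdkn1b from -0.40 to 0.37 and Cdkn2d from -0.82 to 0.19. With Pax5 there, Btg2 ran from -0.26 to 0.0068 and Cdkn1a from -0.22 to 0.043. The Ebf1 effect between knockouts ran from -0.66 to 0.28 for Btg1, -0.052 to 0.62 for Tob2, -0.14 to 0.63 for Cdkn1b and -0.65 to 0.38 for Cdkn2d, which was 0.0044 with RLE scaling and 0.0047 in DESeq2. The Pax5 effect ran from -0.61 to 0.059 for Tob2 and -0.84 to 0.033 for Cdkn1a.

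RLE scaling changed no member's call. The replicate block changed 0 of 90 calls of members. Whether the replicate numbers pair the samples was not settled: column names carry 1 tag for every replicate 1 and another for every replicate 2, with no word on what it marks, and correlations of same-numbered deviations ran from -0.0586 to 0.236 and exceeded 0.1 in 13 of 21 pairs of groups, but in none of those with wild type.

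For members, no filter on low counts called 2 with Pax5 in Pax5-KO (Btg1 and Cdkn1c) and 1 in the Ebf1 effect between knockouts (Cdkn1a), and DESeq2 called 1 with Ebf1 and 1 with Pax5 in Pax5-KO. The motif CCCNNGGG was in 2 members' promoters. Over all genes, no filter and DESeq2 called 711 and 722 with Ebf1 in Ebf1-KO, 1002 and 1243 with Pax5 in Ebf1-KO, 1230 and 1590 with Ebf1 in Pax5-KO, 1043 and 1153 with Pax5 in Pax5-KO cells, 1604 and 1791 for these cells with Pax5 against wild type, 269 and 247 for the Ebf1 effect between knockouts and 940 and 1157 for the Pax5 effect. The replicate block called 916 with Pax5 in Ebf1-KO, 821 with Ebf1 in Pax5-KO and 737 for the Pax5 effect between knockouts. The cause of these shifts was not tested.

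Without 1 library at a time, counts of members called (and of all genes) ran from 4 to 6 (1296 to 1604) in Ebf1-KO, 2 to 4 (1012 to 1614) in Pax5-KO, 0 to 1 (204 to 258) with Ebf1 in Ebf1-KO, 1 to 3 (159 to 357) with Pax5 in Ebf1-KO, 0 to 0 (125 to 2228) with Ebf1 in Pax5-KO cells, and 0 to 1 (222 to 395) with Pax5 in these. Against wild type they ran from 4 to 5 (879 to 1218) in Ebf1-KO with Ebf1 and 0 to 3 (433 to 749) in Pax5-KO with Pax5. For the differences between knockouts they ran from 0 to 1 (48 to 685) for Ebf1 and 0 to 2 (133 to 342) for Pax5. A group left with 1 library was assumed to vary like the others.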
